A study of Mus musculus with 4 samples.

Results

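Ighd-positive B cells of the ascites are described here, in a mouse model of ovarian cancer treated with an siRNA against Fxr1. Members were barcodes with 500 to 4800 detected genes and at most 15% mitochondrial UMIs (unique molecular identifiers, each standing for 1 captured RNA molecule). They held at least 3 UMIs summed over the B cell genes Cd79a, Cd79b and Ms4a1, none of C1qa, C1qb or the T cell receptor subunit Cd3e, and at least 2 UMIs of Ighd, the constant region of the IgD heavy chain. The rule found 842 cells among 98560 barcodes that passed the gene and mitochondrial limits, and among 3794 B cells by the marker sum. These 7 genes chose the members, so their values are a description.

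Female FVB mice carried Br-Luc cells, a mouse ovarian tumor line with p53 and Brca1 lost and myc and activated Akt added, injected into the peritoneum as an immunocompetent syngeneic model. Mice of the siCont group received a control siRNA with locked nucleic acid (LNA) modifications and those of the siFXR1-LNA group an LNA-modified siRNA against Fxr1, both in jetPEI particles. Ascites was taken 6 weeks after tumor cell injection, cells of several mice were pooled per sample, red cells were lysed, and droplet 3′ libraries were made. There were 2 libraries in each of the 2 groups, and p-values of tests between groups measure the spread between these libraries. Tests that compare cell sets of the same libraries, with the library as a block, measure the spread of the differences within libraries. In the study's own work a shallower siFXR1-LNA sample, not named, was dropped for its low read and cell numbers. Both siFXR1-LNA libraries are used here, of which siFXR1-LNA 2 has the fewer UMIs (78179267 against 113606837) and kept barcodes (15525 against 53842).

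Surface IgD marks mature naive B cells, which make IgM and IgD from 1 transcript by alternative splicing and lose IgD on class switching. Follicular B cells recirculate and carry high IgD and CD23 (Fcer2a), whereas the B-1 cells of the peritoneal cavity carry little IgD, self-renew and make natural IgM. Ighd lies on chromosome 12 at 113406604 to 113416324 on the minus strand, next to Ighm at 113418558 to 113422730 (GRCm38, GENCODE release 21 of the mouse annotation).

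Fxr1, the siRNA target, was not lower in the libraries labelled siFXR1-LNA. In the members it stood at 54.3 and 52.2 CPM (counts per 1e+06 UMIs of the summed cells) in siCont 1 and 2, and at 97.8 and 85.0 in siFXR1-LNA 1 and 2. The log2 difference of siFXR1-LNA against siCont was 0.59 (SE 0.35, adjusted p = 0.63 by edgeR's quasi-likelihood test). Over all kept barcodes Fxr1 was at 63.1 and 55.2 CPM against 104 and 72.3, so directions between groups below are those of the libraries as labelled.

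The libraries held between 78179267 and 113606837 UMIs and kept between 9090 and 53842 barcodes, with a median of 1350 to 3617.5 UMIs per kept barcode. The 6 pairs of libraries shared between 598 and 2882 barcode sequences, 3.45 to 7.88% of the smaller library. Of the members, 1 barcode was shared, between siCont 1 and 2. Hemoglobin UMIs were 15.6, 18, 8.93 and 1.33% of the members' UMIs in siCont 1, siCont 2, siFXR1-LNA 1 and siFXR1-LNA 2, an order of libraries that is used throughout. Hbb-bs, a beta globin, was seen in 100% of members in every library.

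Members made up a small share of the kept barcodes in each library. siFXR1-LNA 1 kept the most barcodes, 53842, at the lowest median of 1350 UMIs, and 11320 barcodes there had at least 1000 genes. Members numbered 194, 520, 63 and 65, with 497192, 1550657, 173794 and 176511 UMIs in all. Of the kept barcodes they were 0.965% (95% exact binomial interval 0.835 to 1.11), 5.72% (5.25 to 6.22), 0.117% (0.0899 to 0.150) and 0.419% (0.323 to 0.533), intervals that cover counting error only. Both siCont libraries lay above both siFXR1-LNA libraries. The difference had an exact permutation p of 0.333 (two-sided), the smallest that 2 against 2 libraries allow. All B cells were 7.76, 18.5, 0.579 and 1.57% of kept barcodes, so the shares of members followed those of B cells at large. Thinned to 1000 UMIs a cell, the members were 0.324, 2.15, 0.0280 and 0.175%, and among barcodes with at least 1000 genes 0.955, 4.64, 0.398 and 0.546%. Without barcodes that held S100a8 or S100a9, neutrophil genes, the shares were 1.03, 6.69, 0.152 and 1.24%, and siFXR1-LNA 2 then lay above siCont 1. The difference of -3.07 percentage points between the group means was -0.697 without siCont 2 and -5.45 without siCont 1.

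Within the B cells the members took a share that overlapped between the groups. It was 12.4% (95% exact interval 10.8 to 14.2), 31.0% (28.8 to 33.3), 20.2% (15.9 to 25.1) and 26.6% (21.2 to 32.7). The lowest and the highest value were both siCont libraries, and the group means differed by 1.70 percentage points (exact permutation p = 1, two-sided). Without siCont 1 the difference became -7.57 points, and without siFXR1-LNA 2 it became -1.52. At 1000 UMIs a cell the shares were 3.85, 12.4, 8.88 and 10.4%, with the same order of libraries.

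B cells with no Ighd UMI were the most numerous class in each library, and fewer cells had 1, 2 or 3. B cells with 0 Ighd UMIs numbered 986, 715, 168 and 107, and those with exactly 1, just outside the rule, 380, 443, 81 and 72. Members just inside, with 2 UMIs, numbered 142, 267, 39 and 35, those with 3 UMIs 42, 139, 20 and 14, and those with 4 or more 10, 114, 4 and 16. The most Ighd UMIs in a cell were 7, 10, 5 and 7. Cells with 1 Ighd UMI had a median of 2337, 2552, 2296 and 2251 UMIs in all, and cells with 2 had 2211, 2256, 2313 and 2416, so the edge of the rule fell between cells of like depth. At the other edge, 12, 17, 21 and 3 members had a marker sum of exactly 3, and 8, 7, 19 and 4 barcodes met every other condition with a sum of 2.

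**Figure D1:**
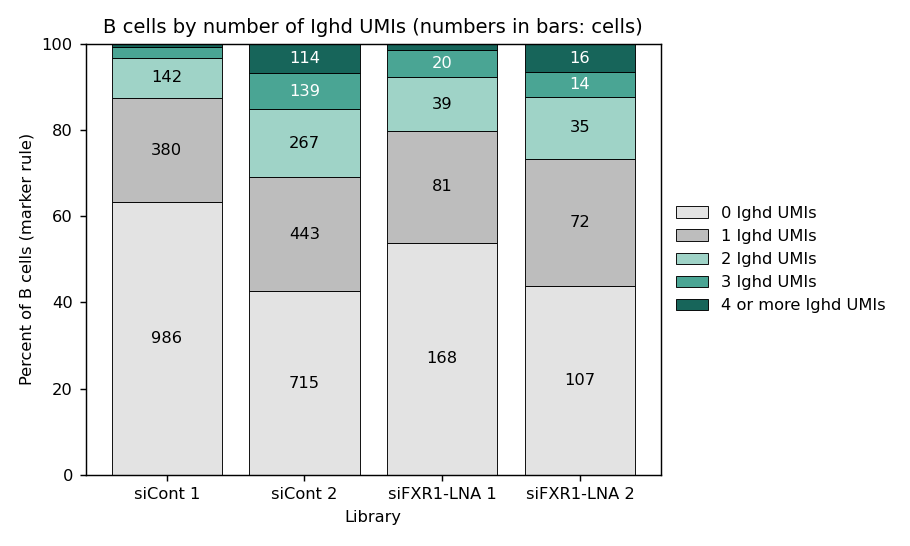
B cells of each library by their number of Ighd UMIs, as a share of the B cells on the y axis, with cell numbers in the bars. Members (2 or more Ighd UMIs) make up 12.4 to 31.0% of B cells, and B cells with 0 Ighd UMIs are the most common class in all 4 libraries.

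The B cell identity of the members was checked against T cells of the same libraries, which should not hold Ighd. This contrast cannot tell conventional B cells from B-1 cells. T cells were barcodes with at least 2 Cd3e UMIs and none of Cd79a, Cd79b, Ms4a1, C1qa or C1qb, 230, 598, 31 and 165 in number, with a median of 2454, 3120, 2695 and 2733 UMIs against 2139, 2407.5, 2313 and 2360 in the members. At least 1 Ighd UMI was found in 1, 3, 0 and 1 of the T cells (0.435, 0.502, 0 and 0.606%). No T cell held 2, which allows shares of up to 1.30, 0.502, 9.68 and 1.82%.

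The absence of Cd79a, Cd79b and Ms4a1 from these T cells was fixed by their choice. Of the B lineage genes that the rule did not use, Ebf1 and Pax5 were present in the members and near 0 in T cells, but others were not near 0. Ebf1, which specifies the B lineage, had a UMI in 78.4, 92.9, 77.8 and 93.8% of members and in 1.74, 1.17, 0 and 0% of T cells. Pax5, which keeps B cells committed, was seen in 42.3, 56.5, 36.5 and 50.8% of members. Bach2, another B lineage factor, was seen in 67.5, 78.8, 63.5 and 73.8% of members and in 27.0, 50, 41.9 and 32.7% of T cells. Ighm was seen in 82.5, 89.4, 87.3 and 89.2% of members and in 12.2, 15.9, 6.45 and 7.88% of T cells. Of the rule's own genes, Cd79a, the signalling partner of the B cell receptor, was seen in 99, 99.2, 93.7 and 98.5% of members. Cd74, the invariant chain of MHC class II, was found in 100, 100, 98.4 and 100% of members and also in 61.3, 43.5, 29.0 and 52.7% of T cells. siFXR1-LNA 1 had the lowest share of members with Pax5. Its median sum over Cd79a, Cd79b and Ms4a1 was 5, against 8, 10 and 9 in siCont 1, siCont 2 and siFXR1-LNA 2.

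The members carried IgM beside IgD and little switched immunoglobulin. Ighm was at 917, 1212, 967 and 940 CPM, with a median of 2, 3, 2 and 2 UMIs per cell, and no Ighm UMI was found in 34, 55, 8 and 7 of the members. Constant regions of switched isotypes (IgG and IgA) were 0.871, 1.58, 0.309 and 0.279% of heavy chain constant UMIs in the members, and 15.9, 6.40, 4.36 and 13% in B cells with 0 Ighd UMIs. Ighd is among these constant UMIs and the rule fixes it, which lowers the share in members. In CPM the switched constant regions were at 16.1, 34.8, 5.75 and 5.67 in members, from 8, 54, 1 and 1 UMIs. They were at 206, 160, 86.9 and 127 CPM in Ighd-zero cells, and the classes did not overlap. In all, 31 of the 842 members had a UMI of a switched isotype.

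Fcer2a and Cr2 were found in a minority of members. Fcer2a (CD23, the low-affinity IgE receptor) was seen in 37, 84, 1 and 13 members, and Cr2 (the complement receptor CD21) in 29, 77, 2 and 12. Either gene was seen in 226 of the 842 members and both in 29. In siFXR1-LNA 1 only 3 of 63 members had either. Zbtb32 or Bhlhe41, transcriptional repressors of B-1 and memory cells, were seen in 11, 30, 3 and 1 members. Other genes of the B-1 list were common in members, and its 12 genes summed to 4338, 1650, 3590 and 2351 CPM, against 2653, 3077, 1542 and 3059 for the 12 follicular genes. The B-1 sum was 6256, 3448, 4271 and 4234 CPM in T cells, so that list does not single out B cells. Cd93, a receptor of transitional B cells, was seen in 10 members in all.

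Members were then compared with B cells that held 0 Ighd UMIs in the same libraries, to ask what else differed between these classes. A count of 0 does not show that the IgD message was absent. Members were 12.4, 31.0, 20.2 and 26.6% of B cells as read, and 3.85, 12.4, 8.88 and 10.4% when thinned to 1000 UMIs a cell. The libraries served as blocks in edgeR's quasi-likelihood test. Of 7482 genes tested, 280 differed (3.74%), 104 higher in the members (1.39%) and 176 lower (2.35%), and the median log2 difference over all genes tested was 0.005. Ighd itself, which the rule fixes, and Ms4a1, which the rule uses, are among the 280; without them 103 were higher and 175 lower. The direction held in all 4 libraries for 78 of the former and 141 of the latter. siCont 2 held 520 of the members, and without it 64 genes passed (20 higher, 44 lower), 57 of them among the 280; without siFXR1-LNA 1 449 passed (148 higher, 301 lower). Members had fewer UMIs than Ighd-zero B cells, whose medians were 2575, 3531, 2331 and 2635, and the part of depth in the calls was tested only by thinning: at 1000 UMIs a cell 96 genes passed (26 higher, 70 lower), 64 of them among the 280. DESeq2 called 85 genes, all among the 280.

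Of 12 genes of follicular (mature naive) B cells, all tested, 7 were higher in the members and 1 lower, with a median log2 difference of 0.59. Fcer2a (chromosome 8, 3681737 to 3694175) was at 88.5, 72.9, 5.75 and 90.6 CPM in members and at 34.1, 18, 0 and 11 in Ighd-zero B cells. The log2 difference was 1.80 (SE 0.23, adjusted p = 0.00015), and members were higher in each library, although the 5.75 CPM of siFXR1-LNA 1 was 1 UMI. Cr2 (chromosome 1, 195136811 to 195176716) was at 68.4, 58.0, 17.3 and 102 CPM against 24.1, 21.4, 6.52 and 16.6 (log2 difference 1.56, SE 0.22, adjusted p = 0.00028). For both genes members exceeded Ighd-zero cells of the same library in 4 of 4 libraries. Ccr7, the chemokine receptor for entry into lymphoid tissue, gave a log2 difference of 0.64 (adjusted p = 0.012) and the inhibitory receptor Btla one of 0.68 (adjusted p = 0.0021), calls that were lost without siCont 2. Of the 12 follicular genes 9 had a positive and 3 a negative log2 difference. The 1 called lower was Klf2, a regulator of lymphocyte trafficking, with a log2 difference of -0.48 (adjusted p = 0.0073).

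Of 15 B lineage transcription factors, 6 were higher in the members and 1 lower, with a median log2 difference of 0.35. Bach2, a repressor that holds back plasma cell differentiation, lies on chromosome 4 at 32238804 to 32586108. It was at 537, 722, 403 and 646 CPM in members and at 283, 367, 317 and 298 in Ighd-zero cells (log2 difference 0.84, SE 0.11, adjusted p = 0.00026). Every member value lay above every Ighd-zero value. Foxp1 and Ets1, both needed for mature naive B cells, gave log2 differences of 0.60 and 0.58, with adjusted p of 0.0014 and 0.0031. Ebf1 was at 809, 1255, 829 and 1059 CPM against 534, 730, 659 and 903 (log2 difference 0.49, adjusted p = 0.0072), and Mef2c was higher by 0.57 (adjusted p = 0.0065), both lost without siCont 2. Pax5 gave 0.28 with adjusted p = 0.23. The factor called lower was Klf2, named above with the follicular genes. Irf4, which drives plasma cell differentiation and is in the plasma cell list, was lower too. It was at 12.1, 23.2, 23 and 5.67 CPM against 33.8, 49.1, 41.3 and 33.1 (log2 difference -1.22, adjusted p = 0.0071), a call also lost without siCont 2.

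**Figure D2:**
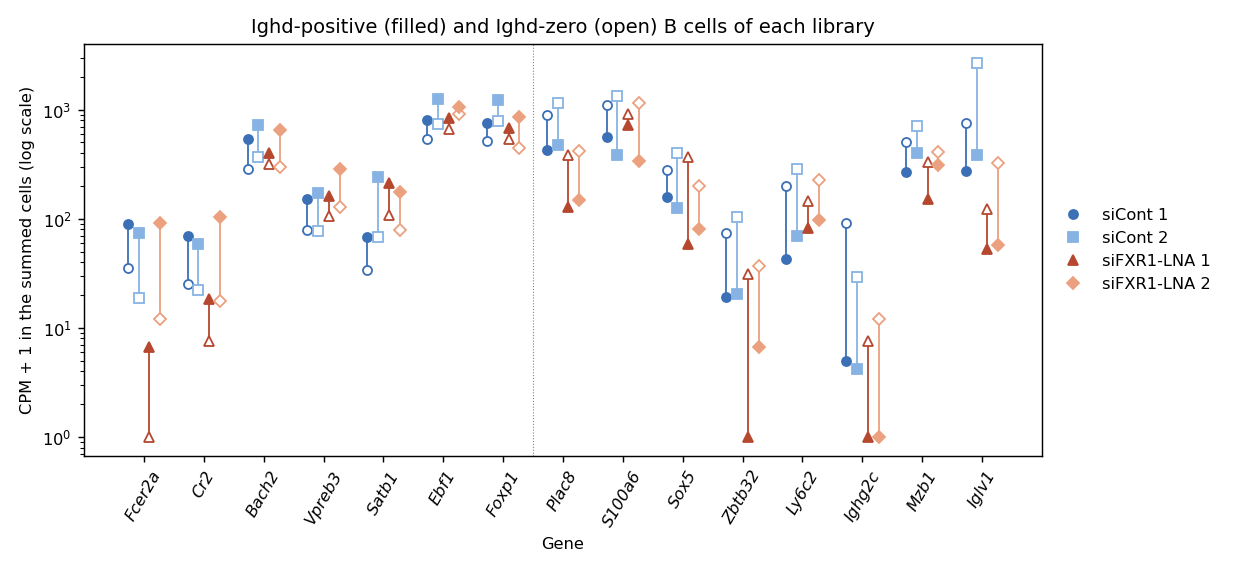
Levels of 15 genes (CPM + 1, log axis) in Ighd-positive (filled) and Ighd-zero (open) B cells, with a line joining the classes of each library. Fcer2a, Cr2 and Bach2 rise from Ighd-zero to Ighd-positive cells in 4 of 4 libraries, and Plac8, S100a6 and Zbtb32 fall in 4 of 4.

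Among the strongest rises picked by size were genes outside those lists. Satb1, a chromatin organizer (chromosome 17, 51736187 to 51833290), was at 66.4, 239, 213 and 176 CPM in members and at 32.8, 66.7, 107 and 77.3 in Ighd-zero cells (log2 difference 1.39, SE 0.17, adjusted p = 9.1e-05). Zfp608, a zinc finger gene, was at 50.3, 101, 144 and 130 CPM against 22.4, 25.6, 56.5 and 63.5 (log2 difference 1.51, SE 0.19, adjusted p = 0.00014). Vpreb3, a partner of the immunoglobulin light chain in the B lineage, was at 151, 170, 161 and 283 CPM against 78.3, 75.7, 104 and 127 (log2 difference 1.00, SE 0.13, adjusted p = 0.00022). All 3 rose in each library. The unnamed transcript Gm47782 gave a log2 difference of 1.76, Neurl3 of 1.20 and Snx29 of 1.05, and each of the 6 was called again whichever library was left out. Zfp318, which represses the stop signal between Ighm and Ighd and so allows IgD to be made, rose by a log2 difference of 1.23 (SE 0.20, adjusted p = 0.0012), from 30.0, 33.2, 28.3 and 60.7 CPM to 72.4, 101, 40.3 and 79.3. Zfp318 was not called without siCont 2, and neither were the other named rises Pxk, Sfn and Igkv17-121, with log2 differences of 0.92, 0.91 and 1.09.

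B-1 genes were lower in the members, 5 of 10 tested with 0 higher and a median log2 difference of -0.56. Zbtb32 (chromosome 7, 30589681 to 30598909) was at 18.1, 19.3, 0 and 5.67 CPM in members and at 72.4, 102, 30.4 and 35.9 in Ighd-zero cells (log2 difference -2.36, SE 0.23, adjusted p = 1.1e-05). Plac8, outside the B-1 list (chromosome 5, 100553725 to 100572245), was at 428, 469, 127 and 147 CPM against 883, 1142, 387 and 414 (log2 difference -1.30, SE 0.11, adjusted p = 1.5e-06). Bhlhe41 gave -1.96 (adjusted p = 0.0023) and Spn, which encodes CD43, -1.74 (adjusted p = 0.0017), and both calls were lost without siCont 2. In siFXR1-LNA 1 Bhlhe41 was the other way round, at 23 CPM in members and 19.6 in Ighd-zero cells. Cd5, another B-1 marker, was at 0 to 6.03 CPM in members and was not tested.

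Other falls by size included S100a6, which is in the B-1 list, and Ly6c2 and Sox5, which are not. S100a6, a calcium-binding protein, was at 561, 382, 719 and 334 CPM in members and at 1109, 1330, 902 and 1140 in Ighd-zero cells (log2 difference -1.26, SE 0.17, adjusted p = 0.00026). Ly6c2, a surface protein of activated and memory lymphocytes and of monocytes, was at 42.2, 68.4, 80.6 and 96.3 CPM against 197, 286, 143 and 226 (log2 difference -1.84, SE 0.18, adjusted p = 1.1e-05). Sox5, a transcription factor of memory-type B cells, was at 157, 125, 57.5 and 79.3 CPM against 276, 396, 365 and 199 (log2 difference -1.49, SE 0.18, adjusted p = 9.1e-05). For Ly6c2 and Sox5 every member value lay below every Ighd-zero value. Cd80, a costimulatory ligand, gave a log2 difference of -1.75, the chemokine receptor Cxcr3 -1.93 and the integrin subunit Itga4 -0.79, with adjusted p of 0.00097, 0.00026 and 0.00087. These 3 and the 3 above were called whichever library was left out.

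Plasma cell genes were lower too, 7 of 8 tested, with a median log2 difference of -2.22. Jchain, which joins IgM and IgA into polymers, was at 10.1, 11, 0 and 0 CPM in members and at 75.2, 274, 6.52 and 0 in Ighd-zero cells (log2 difference -4.32, adjusted p = 8.1e-08). In siFXR1-LNA 2 Jchain was at 0 in both classes. Mzb1, a chaperone for immunoglobulin, was at 270, 403, 150 and 312 CPM against 505, 710, 330 and 411 (log2 difference -0.83, SE 0.12, adjusted p = 0.00028). Igha, the IgA constant region, was at 4.02, 8.38, 0 and 5.67 CPM against 43.8, 41.2, 8.69 and 13.8 (log2 difference -2.51, adjusted p = 0.00018).

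Of 5 immunoglobulin constant genes (BCR chains), 3 were lower and 0 higher (median log2 difference -0.48). Ighm was at 1089, 2343, 1906 and 850 CPM in Ighd-zero cells (log2 difference -0.56, SE 0.13, adjusted p = 0.020), lower in members of 3 libraries and higher in siFXR1-LNA 2, and the call was lost without siCont 2. Co-receptor and signalling genes split, with 2 of 18 higher, 1 lower and a median of 0.00. Of the antigen presentation genes 4 of 11 of MHC class I and 1 of 12 of class II were lower, with medians of -0.36 and -0.14. Cd74 did not pass (log2 difference -0.16, adjusted p = 0.26). Interferon-stimulated genes had 4 of 15 lower and 0 higher (median -0.36), among them Ifi27l2a, with a log2 difference of -0.84 (adjusted p = 0.00030).

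Lists with no gene called between the classes included receptors of the survival factor BAFF (9 tested), B cell Toll-like receptors (6), germinal centre genes (2), cytokines (4) and hypoxia and glycolysis genes (19, median log2 difference -0.07). None of the 5 erythroid, 10 macrophage, 7 neutrophil and 2 T cell markers tested was called either. Of 4 mast cell markers tested 1 was higher in the members, and of 3 dendritic cell markers 1 was lower.

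Some of these genes were followed over B cells with 0, 1, 2 and 3 or more Ighd UMIs, as a description. Bach2 in siCont 1 went from 283 to 386, 530 and 557 CPM, and in siCont 2 from 367 to 542, 700 and 743. In siFXR1-LNA 1 it went from 317 to 340, 398 and 411 CPM, and in siFXR1-LNA 2 from 298 to 481, 632 and 660. Bach2 thus rose at each step in 4 of 4 libraries. Plac8 fell in siCont 1 from 883 to 531, 477 and 283 CPM, in siCont 2 from 1142 to 683, 473 and 464, in siFXR1-LNA 1 from 387 to 302, 127 and 126, and in siFXR1-LNA 2 from 414 to 224, 203 and 91.0. Fcer2a rose in siCont 1 from 34.1 to 57.3, 83.0 and 105 CPM and in siCont 2 from 18 to 47.6, 68.8 and 76.8. In siFXR1-LNA 1 Fcer2a was at 0 in all steps but that of 2 Ighd UMIs, where it was at 9.05. Other genes were less regular. S100a6 in siFXR1-LNA 1 went from 902 to 1421, 869 and 458 CPM, and Vpreb3 in siCont 1 from 78.3 to 156, 131 and 210. Ebf1 in siFXR1-LNA 2 went from 903 to 885, 1140 and 979 CPM. Cells with exactly 1 Ighd UMI, which the rule leaves out, lay between the classes for Bach2 and Plac8 in each library.

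**Figure D3:**
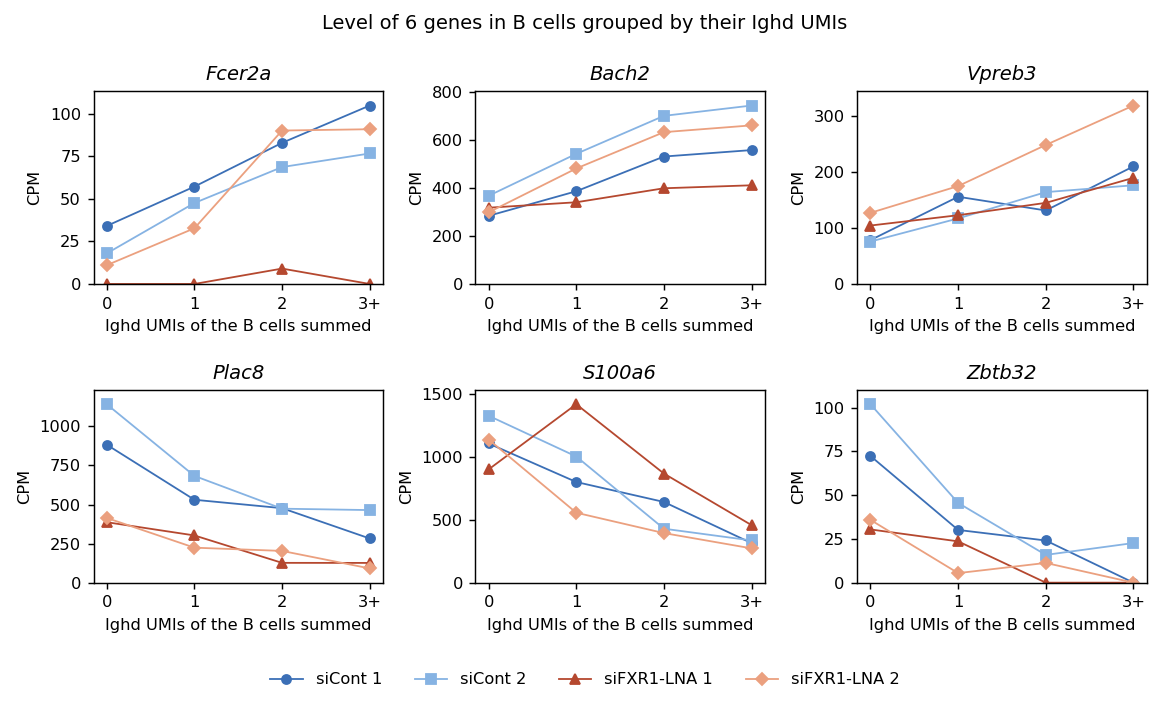
Levels (CPM) of selected genes in B cells with 0, 1, 2 and 3 or more Ighd UMIs, with 1 line per library. Bach2 rises and Plac8 falls at each step in all 4 libraries.

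The V segments, the variable-region gene segments that each B cell joins once, were spread more evenly in the members of the siCont libraries and siFXR1-LNA 2. Reads of V segments can be split between near-identical paralogs, so single segments are uncertain. The 5 largest heavy chain segments took 29.2, 23, 53.6 and 31.4% of heavy V UMIs in members and 41.1, 59.0, 46.1 and 41.6% in Ighd-zero cells. In siFXR1-LNA 1 the members held only 28 heavy V UMIs, against 455, 1888 and 169 in the other libraries, and there the order was the opposite. For kappa the 5 largest took 31.7, 21.8, 39.7 and 32.6% in members and 48.8, 49.2, 41.4 and 47.1% in Ighd-zero cells, lower in members of each library. Numbers of cells differ between the classes, and their part in these shares was not tested.

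Of 87 V segments tested between the classes, 33 were called, 13 higher in members, all of them kappa, and 20 lower. The 20 were 7 heavy, 11 kappa and 2 lambda segments. Igkv4-55 was at 0, 21.9, 0 and 0 CPM in members and at 87.6, 825, 6.52 and 5.52 in Ighd-zero cells (log2 difference -5.31, SE 0.24, adjusted p = 2.0e-10). Ighv1-22 was at 505 CPM in Ighd-zero cells of siCont 2 and at 0 to 49.7 in all other sets of cells (log2 difference -3.44), and without siCont 2 its log2 difference was -0.64. Iglv1 was at 274, 379, 51.8 and 56.7 CPM in members against 749, 2690, 122 and 323 (log2 difference -2.20, SE 0.20, adjusted p = 3.4e-06). Ighv11-2, a segment known from B-1 cells, was 9.01, 4.71, 0 and 0% of heavy V UMIs in members and 7.51, 7.52, 24.7 and 11.9% in Ighd-zero cells. In CPM Ighv11-2 gave a log2 difference of -1.54 (adjusted p = 0.0054), lost without siCont 2. Igkv14-126 gave -1.91 and Iglv2 -1.47, with adjusted p of 0.00026 and 6.4e-05.

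Light chain shares depended on which part of the transcript was counted. By constant regions, lambda was 82.3, 79.8, 68.2 and 75.5% of light chain UMIs in members, and by V segments 11.8, 10.4, 5.88 and 5.44%. Kappa V segments held 1998, 8242, 224 and 660 UMIs where the kappa constant region Igkc held 146, 571, 41 and 60, so the constant regions do not measure the use of kappa and lambda here. By cells, 793 of the 842 members had a kappa V UMI, 195 a lambda V UMI, 163 both and 17 neither. Both siCont libraries lay above both siFXR1-LNA libraries in the lambda share on either measure, by differences of -9.22 and -5.45 percentage points for siFXR1-LNA against siCont (exact permutation p = 0.333 for each, two-sided, the smallest that this design allows). The constant-region shares overlapped between the groups at 1000 UMIs a cell (84.6, 80.8, 81.8 and 81.3%) and in members with at least 3 Ighd UMIs (78.9, 78.3, 79.2 and 73.6%).

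**Figure D4:**
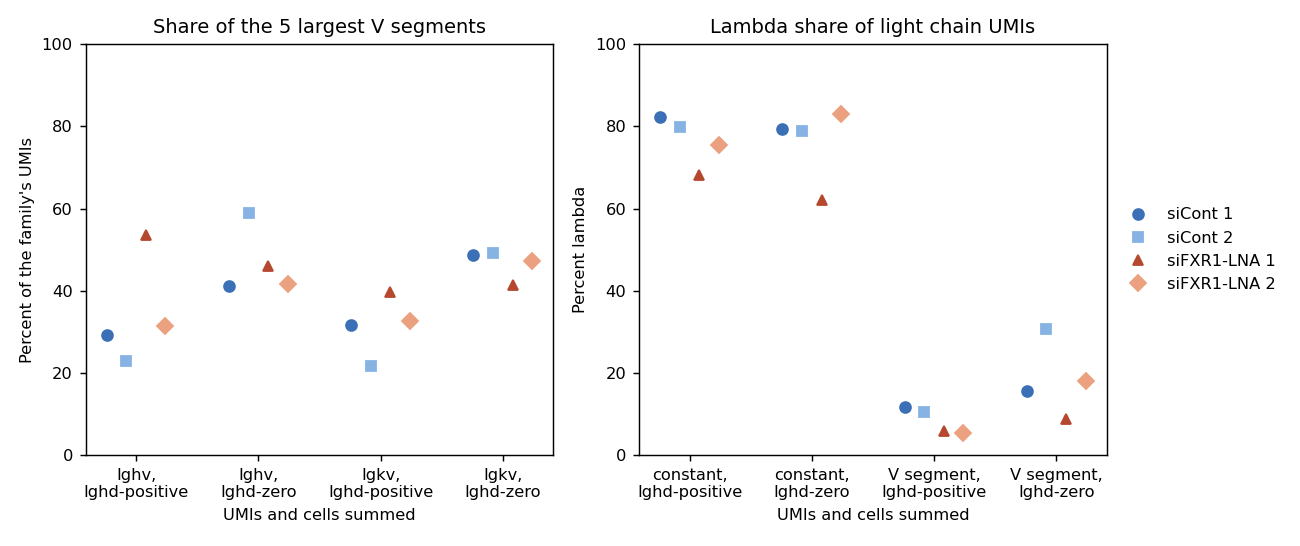
Shares of V segment UMIs and of lambda light chains in Ighd-positive and Ighd-zero B cells, with 1 point per library. The 5 largest kappa segments take 21.8 to 39.7% in members and 41.4 to 49.2% in Ighd-zero cells, and lambda is far higher by constant regions than by V segments.

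The second comparison asked how the members of the siFXR1-LNA libraries differed from those of the siCont libraries. Of 5086 genes tested with edgeR's quasi-likelihood test on UMIs summed per library, 53 differed (1.04%), 39 higher (0.767%) and 14 lower (0.275%) in the libraries labelled siFXR1-LNA. The median log2 difference over all genes tested was -0.03. The count moved both up and down when 1 library was left out. It was 10 when barcodes with a UMI of the neutrophil genes S100a8 or S100a9 were removed. That run left 178, 251, 28 and 34 of the 194, 520, 63 and 65 members, and the part of the lost cells in the lower count was not tested. At 1000 UMIs a cell 581 genes could be tested and Saa3 alone was called.

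Among the rises by size were acute-phase, antimicrobial and myeloid inflammatory genes. Saa3, an acute-phase protein (chromosome 7, 46711998 to 46715700), was at 105 and 76.1 CPM in siCont and at 8792 and 11251 in siFXR1-LNA members (log2 difference 6.62, SE 0.35, adjusted p = 0.00012). Lcn2, a siderophore-binding protein, was at 4.02 and 6.45 CPM against 1513 and 1484 (log2 difference 7.78, SE 0.41, adjusted p = 0.00012). Nos2, inducible nitric oxide synthase, had 0 UMIs in siCont members and 33 and 8 in siFXR1-LNA members, at least 79.9-fold higher when 3 UMIs over the siCont group are taken as its limit. Cxcl2, a chemokine for neutrophils, was at 0 and 3.22 CPM against 713 and 351 (log2 difference 7.51, SE 0.70, adjusted p = 0.0037). Cxcl3 and Acod1 had 1 and 3 UMIs in the siCont group, with ratios of 234 (95% exact counting interval 39.6 to 9464) and 136 (44.8 to 677). Wfdc21, Cd14, Mt2 and Chil3 gave log2 differences of 5.86, 5.56, 5.48 and 5.38.

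Saa3 was as widespread in other cells of the same libraries. It had a UMI in 24.2, 19.0, 100 and 100% of members, in 19.5, 20.3, 100 and 100% of Ighd-zero B cells, and in 22.6, 18.6, 100 and 100% of T cells. In T cells it was at 97.7, 60.4, 5593 and 6633 CPM. Markers of other cells moved with the groups in the members: the summed level of 10 neutrophil genes was 294, 740, 8044 and 2453 CPM, against 579, 4025, 5812 and 13108 over all kept barcodes. The sum of 12 macrophage genes was 1798, 1472, 3119 and 4838 CPM, that of 5 erythroid genes 156996, 180616, 89520 and 13353, and that of 4 mast cell genes 1716, 760, 34.5 and 102. Of the tested markers, 3 of 9 for macrophages and 2 of 5 for neutrophils rose, 3 of 4 for mast cells fell, and none of 5 erythroid ones passed. Their part in the differences of the members was not tested.

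The same contrast in T cells called 121 of 7322 genes (1.65%), 66 higher (0.901%) and 55 lower (0.751%). These T cells come from the same libraries as the members, so the contrasts share their libraries. When the change in members was tested against the change in T cells, a test added after the data were seen, 0 of the 53 genes called in members differed (edgeR with adjustment over 8099 genes, lowest adjusted p 0.564). At an unadjusted p under 0.05 6 of the 53 did, and DESeq2 called 0. In Ighd-zero B cells 1 of 10231 genes was called (0.00977%), namely Saa3 (log2 difference 6.43, adjusted p = 0.0044), with 1108 at an unadjusted p under 0.05 and 165 called by DESeq2. Over all genes, 15 changed more upwards in members than in T cells (0.185%) and 6 less (0.0741%), 21 in all (0.259%), led by MHC class II genes. The changes of members and Ighd-zero cells differed for 0 of 7482 genes (0%), with 373 at an unadjusted p under 0.05 and 0 called by DESeq2.

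**Figure D5:**
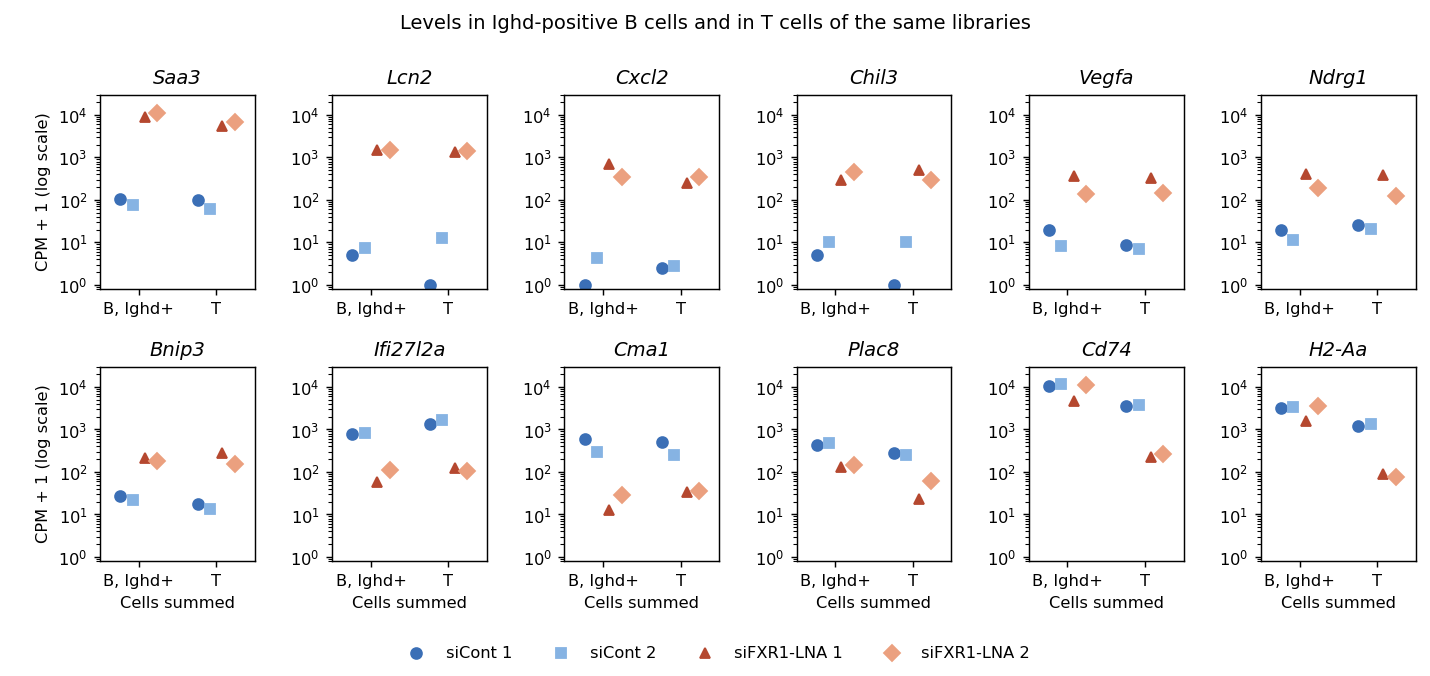
Levels (CPM + 1, log axis) of 12 genes in the summed Ighd-positive B cells and T cells of each library, with 1 symbol per library. Saa3, Lcn2, Cxcl2, Chil3, Vegfa, Ndrg1 and Bnip3 are higher and Ifi27l2a, Cma1 and Plac8 lower in both siFXR1-LNA libraries in either cell type, while Cd74 in T cells is at 224 and 271 CPM against 3492 and 3856 in siCont.

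Of 19 hypoxia and glycolysis genes tested, of 20 listed, 7 rose and 0 fell in the siFXR1-LNA members. These 7 passed the low-count filter only through the siFXR1-LNA group, so no median is given. Bnip3, a mitophagy receptor induced in low oxygen, was at 26.1 and 20.6 CPM in siCont and 213 and 176 in siFXR1-LNA members (log2 difference 2.90, SE 0.35, adjusted p = 0.0099). Ndrg1, a stress-response gene, was at 18.1 and 10.3 CPM against 403 and 187 (log2 difference 4.30, SE 0.53, adjusted p = 0.0099). Vegfa, the angiogenic growth factor, was at 18.1 and 7.09 CPM against 374 and 136 (log2 difference 4.36, SE 0.64, adjusted p = 0.021). Ero1l, an oxidase of the endoplasmic reticulum, gave 3.86, the oxygen sensor Egln3 2.60, the collagen hydroxylase P4ha1 2.53 and the glucose transporter Slc2a1 2.05, of which the last 3 were lost without siFXR1-LNA 1. T cells of the same libraries had Vegfa at 7.75, 5.99, 325 and 146 CPM and Bnip3 at 17.1, 12.4, 280 and 154. Gapdh, the glycolytic enzyme, was at 1512 and 996 CPM against 3027 and 3020 and did not pass (log2 difference 1.10, adjusted p = 0.16).

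The falls were mast cell, interferon-stimulated and V segment genes with a few others. Mast cell proteases led: Cma1 was at 583 and 295 CPM in siCont and 11.5 and 28.3 in siFXR1-LNA members (log2 difference -4.61, SE 0.55, adjusted p = 0.0097), and at 502, 243, 33.6 and 35.6 in T cells. Mcpt4 and Cpa3, with 1 and 3 UMIs in the siFXR1-LNA group, were 72.0-fold (95% exact counting interval 12.9 to 2851) and 22.2-fold (7.55 to 108) higher in siCont, the Cpa3 call being lost without siFXR1-LNA 1. Ifi27l2a (chromosome 12, 103442167 to 103443680) was at 796 and 847 CPM against 57.5 and 113 (log2 difference -3.46, SE 0.38, adjusted p = 0.0077). In T cells Ifi27l2a was at 1361, 1687, 123 and 103 CPM.

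Ifi27l2a was the 1 gene called of 13 type I interferon-stimulated genes tested, of 18 listed, and 0 rose. Genes such as Ifit3 passed the low-count filter only through the siCont group, so no median is given. The antiviral gene Ifit3 was at 44.2 and 35.5 CPM in siCont and 0 in both siFXR1-LNA sets of members (adjusted p = 0.069). Irf7, which amplifies the interferon response, was at 109 and 85.8 CPM against 5.75 and 22.7 (adjusted p = 0.056). The summed level of 17 measured genes of the list was 1937, 1806, 328 and 448 CPM in members and 3367, 3983, 348 and 558 in T cells, with no overlap between groups in either cell type.

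Of the 14 falls 7 were V segments. Ighv11-2, Igkv3-12 and Ighv6-3 had 0 UMIs in both siFXR1-LNA sets of members and were at least 7.41-fold, 8.21-fold and 6.79-fold lower, with 3 UMIs over the group as the limit. Ighv11-2 and Ighv6-3 were lost without siCont 1, without siCont 2 and without siFXR1-LNA 1. Igkv17-127 and Igkv14-126, with 1 and 3 UMIs in the siFXR1-LNA group, were 64.5-fold (95% exact counting interval 11.5 to 2554) and 20.5-fold (6.95 to 99.7) higher in siCont. Counting intervals and limits for V segments take UMIs as independent, although many UMIs of a segment can come from 1 cell. They are therefore too narrow, and they leave out the spread between libraries. Igkv6-25, with 1 UMI, was 29.9-fold (5.30 to 1189) higher in siCont and lost without siCont 2, siFXR1-LNA 1 or siFXR1-LNA 2. With B cells of 1 Ighd UMI added, 5 of the 7 falls no longer passed. The log2 difference then was -0.63 for Igkv17-127 (adjusted p = 0.50), -0.93 for Ighv6-3 (adjusted p = 0.75), -2.37 for Igkv3-12 (adjusted p = 0.20) and -1.84 for Igkv6-25 (adjusted p = 0.29). Ighv11-2 and Igkv14-126 still passed, at -4.90 and -4.59. Iglv1 gave a log2 difference of -2.78 (adjusted p = 0.017), lost without siFXR1-LNA 1 and at -1.76 with those cells added (adjusted p = 0.19). The siFXR1-LNA members were 63 and 65 cells against 194 and 520 in siCont, which limits how many rearrangements were sampled.

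Plac8 was at 428 and 469 CPM in siCont and 127 and 147 in siFXR1-LNA members (log2 difference -1.90, SE 0.31, adjusted p = 0.032), lost without either siFXR1-LNA library. In T cells it was at 273, 252, 22.4 and 61.3 CPM. Itgam, the integrin CD11b of peritoneal B-1 cells and myeloid cells, was the 1 gene called of 7 B-1 genes tested, at 28.2 and 23.2 CPM against 155 and 215 (log2 difference 2.68, SE 0.35, adjusted p = 0.012). It was at 24.8, 37.3, 123 and 111 CPM in T cells.

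A set of 6 lists of B cell genes gave no calls between the groups, apart from the V segments, Plac8 and Itgam above. None passed of the 5 immunoglobulin constant genes (median log2 difference -0.89), 17 co-receptor and signalling genes (-0.29), 15 B lineage transcription factors (-0.41), 12 follicular genes (-0.64), 11 MHC class I genes (-0.59) and 12 MHC class II genes (-0.61), against -0.03 over all genes tested. Of 12 B-1 genes 7 were tested, and Itgam passed the low-count filter only through the siFXR1-LNA group. No median is given for that list, which does not single out B cells. Bach2 gave -0.47 (adjusted p = 0.68), Cr2 -0.27 (adjusted p = 0.93) and Ighm -0.35 (adjusted p = 0.73). Cd74 was at 10829 and 11608 CPM against 4626 and 11229, where siFXR1-LNA 1 lay apart and siFXR1-LNA 2 lay among the siCont values. The BAFF receptor Tnfrsf13c was at 98.6, 80.6, 40.3 and 159 CPM, with siFXR1-LNA 1 lowest and siFXR1-LNA 2 highest. A p that misses the threshold with 2 libraries a group does not show that these genes were alike.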

How the data were processed

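The 4 raw matrices, 1 per library, of UMI counts for 32285 genes were deposited by the authors. The submitters' processing notes name Cell Ranger 7.0.0 and mm10, the study's methods another version. UMI counts were summed per library over members, B cells with 0 Ighd UMIs and T cells. No doublet caller was run. Barcodes with C1qa, C1qb or Cd3e UMIs were left out, and a run without the 5% deepest members was made. Sums were tested in edgeR 4.0.16 (R 4.3.3) with TMM, its default low-count filter, quasi-likelihood and Benjamini-Hochberg adjustment at 0.05, with library as a block between cell classes, since both classes come from 1 library. DESeq2 1.42.0 was an alternative. SE is the log2 difference over the root of F. Shares of 2 against 2 libraries had exact permutation tests. Scripts were tested on simulated data with changes of 2, 4 and 16-fold. The test between groups recovered 6.25, 63.6 and 100% of them, and that between classes 84.3, 100 and 100%. For the difference of the group change between classes it was 8.77, 54.1 and 95.8%, so small changes would mostly be missed in tests that involve the groups. Named genes were the 10 largest rises and falls of at least 50 mean CPM, plus list genes chosen by role. Members and gene lists were chosen with earlier results of these data known. The T cell comparisons and the run without S100a8 or S100a9 barcodes were added after seeing the data. Identifiers matched GENCODE 21 in 99.6%. Depth per member set was 173794 to 1550657 UMIs, so 1 UMI was worth up to 5.75 CPM (Fcer2a in siFXR1-LNA 1).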

Additional observations from a re-analysis of the deposited data

Results flagged for a closer look

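The change between siFXR1-LNA and siCont libraries differed between Ighd-positive B cells and T cells for 21 of 8099 genes (0.259%), 15 with the higher change in B cells (0.185%) and 6 with the lower (0.0741%), by an interaction term in edgeR. MHC class II genes led. The difference of the changes was 3.38 for Cd74, 4.03 for H2-Eb1, 3.83 for H2-Aa and 3.25 for H2-Ab1 on the log2 scale, and all 4 were called whichever library was left out. Cd74 was at 10829, 11608, 4626 and 11229 CPM in members and at 3492, 3856, 224 and 271 in T cells. H2-Aa was at 3268, 3459, 1582 and 3632 CPM in members and at 1240, 1340, 89.7 and 73.2 in T cells. The T cells were lower in both siFXR1-LNA libraries, while members were lower in siFXR1-LNA 1 and near the siCont values in siFXR1-LNA 2. Over all kept barcodes the 12 class II genes summed to 16038, 21864, 2569 and 7489 CPM, also lower in both siFXR1-LNA libraries. The sums were 7529, 8059, 695 and 827 in T cells and 20318, 21230, 9385 and 20792 in members. The part of the library-wide level in the T cell values was not tested.

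H2-DMb2, a peptide-loading chaperone, and H2-Oa, its inhibitor subunit, differed by 7.83 and 8.04, fitted values that rest on 0 CPM in T cells of both siFXR1-LNA libraries. Both were lost without siFXR1-LNA 2. Cst3, a protease inhibitor of myeloid and dendritic cells, differed by 1.69 and was lost without siCont 1. It was at 720, 695, 547 and 442 CPM in members and 1807, 1423, 325 and 334 in T cells. Blk, a kinase of the B cell receptor, differed by -3.17. It was at 153, 121, 132 and 68.0 CPM in members and at 26.4, 15.7, 44.8 and 154 in T cells, and the call was lost without siFXR1-LNA 2.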

How the results depend on the processing

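The limits are 2 libraries a group, pooled mice, 63 and 65 members in the siFXR1-LNA libraries and no DNA-level or surface measure of IgD. Between groups the 53 calls became 80 with DESeq2 (64 higher, 16 lower), 271 without the low-count filter (167 higher, 104 lower, against 39 and 14), 122 with at least 1 Ighd UMI, 1 after thinning, 10 without S100a8 or S100a9 barcodes (9 of them among the 53), and 40 to 187 leaving out 1 library. With 1 library a group left, that library is assumed to vary like the others. Rises were 73.6% of the calls, 61.6% without the filter and 58.8% without siCont 2. No call reversed.

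The 280 class calls became 85 with DESeq2, 446 without the filter, 168 with at least 3 Ighd UMIs, 96 after thinning, 161 without S100a8 or S100a9 barcodes (145 of them among the 280), and 64 to 449 leaving out 1 library. With no replicate block 1 gene was called. The 0 calls for the difference of the group change between classes became 2 after thinning, 21 without the filter and 7 to 19 leaving out 1 library. In T cells the 121 calls became 305 without the filter and 30 to 353 leaving out 1 library, and the single call in Ighd-zero cells became 165 with DESeq2, 373 without the filter and 0 to 509 leaving out 1 library. The 21 calls between members and T cells became 4 with DESeq2, 33 with DESeq2 size factors, 34 without the filter and 16 to 39 leaving out 1 library.

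Replicate numbers are shared between groups, and deviations of same-numbered libraries correlated at 0.236, with only 2 pairs and no label that links them. With the replicate block between groups 245 genes were called (166 higher, 79 lower). The share of members among B cells ranged from -7.57 to 11 percentage points of difference leaving out 1 library, and the lambda share from -12.9 to -5.57. For single genes, 1556 of 1852 alternative values kept their direction and side of the threshold and 4 reversed: Fmr1 between groups (0.20 with at least 1 Ighd UMI, -0.70 to 0.21 leaving out 1 library and lowest without siFXR1-LNA 1, highest without siFXR1-LNA 2), Ebf1 between groups (-0.69 to 0.039 leaving out 1 library, highest without siCont 2) and Fxr1 between classes (-0.0099 without S100a8 or S100a9 barcodes). The causes were not tested.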
